A study of Mus musculus with 4 samples.

Results

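The cyclins, cyclin-dependent kinases (CDKs), CDK inhibitors, E2F transcription factors and retinoblastoma family genes were examined in mouse epiblast stem cells (EpiSCs) and in cells converted from them with small molecules. Members were the genes whose array symbol names a cyclin A, B, D, E, F or H, a numbered CDK, a CDK inhibitor other than Cdkn1c, a numbered E2F, or Rb1, Rbl1 or Rbl2. The rule used names only and found 46 of 16593 measured genes, on 77 of 25697 probes. Ccndbp1, Cdkn2aip and Cdkn2aipnl were matched by name alone and are neither cyclins nor inhibitors. The well-known members Cdk4, Ccnb1, Ccnh, Cdkn3 and E2f8 were not analysed here.

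The study profiled total RNA, labelled as cRNA, on Illumina mouse bead arrays. There were 2 arrays of EpiSCs and 2 of cells called parnate/mAMFGi in the labels, which name the replicates biological. Parnate (tranylcypromine) inhibits the histone demethylase LSD1, and the labels do not spell out mAMFGi. The medium of the EpiSCs held serum replacement and bFGF. Serum and LIF went into the medium given for the converted cells, and both kinds of cell lay on irradiated embryonic fibroblasts, so medium and cell state cannot be told apart. The labels name no strain, line or clone.

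Progress through the cell cycle is driven by CDKs, which need a cyclin partner to be active. D-type cyclins with CDK4 or CDK6, and then cyclin E with CDK2, phosphorylate the retinoblastoma family of pocket proteins in G1. Phosphorylation frees E2F factors to switch on genes of DNA replication. Cyclins A and B with CDK1 carry the cell through G2 and mitosis, and inhibitors of the INK4 family (Cdkn2a to Cdkn2d) and the CIP/KIP family (Cdkn1a, Cdkn1b) hold CDKs back. Mouse embryonic stem cells are known for a short G1 and for cyclin E and CDK2 activity through most of the cycle.

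The arrays behaved alike within groups. Log2 intensities of all probes correlated at 0.996 between the EpiSC arrays and 0.998 between the parnate/mAMFGi arrays, and at 0.942 to 0.945 between groups. Array medians lay between 50 and 52, and the lowest value on any array was 25.5. A gene that reads near 50 therefore sits where the bulk of all probes sit, and its fold change may be understated. Whether such a gene was detected could not be called. Of 7 ES cell markers, 6 rose, each at least 2-fold. The summed intensity of the 7 was 411.0 and 445.9 in EpiSCs and 39014 and 40371 in parnate/mAMFGi cells. Most of the latter was Dppa5a, which alone read 31737.3 and 33315.8. Of 6 EpiSC markers, 4 fell (Fgf8, Lefty1, Krt18 and Fgf5), Otx2 rose and Cer1, dim in both groups, did not pass. Among 13 markers of fibroblast feeders, 9 rose and 2 fell, and their summed intensity was 2657 and 2383 in EpiSCs and 4508 and 4210 in parnate/mAMFGi cells. In whole-culture RNA, fewer cells of a type and less RNA per cell cannot be told apart.

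In parnate/mAMFGi cells the cell cycle genes moved in both directions within most classes. Cyclin D1, cyclins E1 and E2, and the inhibitors Cdkn2a and Cdkn2b rose. Cyclins D2 and D3, Cdk1, Cdk6, the inhibitors Cdkn1a, Cdkn1b and Cdkn2d, and the repressor factors E2f5 and E2f6 fell. Changes were tested with limma on log2 intensities, and a gene stands for its brightest probe. A gene passed at a Benjamini-Hochberg adjusted p under 0.05, where the adjustment took in all 25697 probes. Of the 46 members, 13 rose, 14 fell and 19 did not pass. Thus 58.7% of members passed, beside 41.5% of all genes (20.2% higher and 21.2% lower). The shares differed with brightness. Among the 36 members whose brightest probe was above the median of all probes, 72.2% passed, beside 69.8% of genes so selected, and among the 10 dimmer members 1 passed, beside 9.09%. The median log2 fold change of the members was 0.10, and 0.02 over all genes. Their median absolute log2 fold change was 0.33, against 0.19 for all genes, and for the brighter members it was 0.44, against 0.49 for brighter genes. Changes of at least 2-fold numbered 3 up (Cdkn2a, Ccne1 and Ccnd1) and 2 down (Cdkn1a and E2f5), which is 5 of 46 beside 11.4% of all genes. The 2 groups did not overlap for 36 members (78.3%), and for 66.1% of all genes. With 2 arrays per group, an exact permutation test of 1 gene cannot go below p = 0.333 (two-sided), so every call rests on the spread shared across probes.

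**Figure D1:**
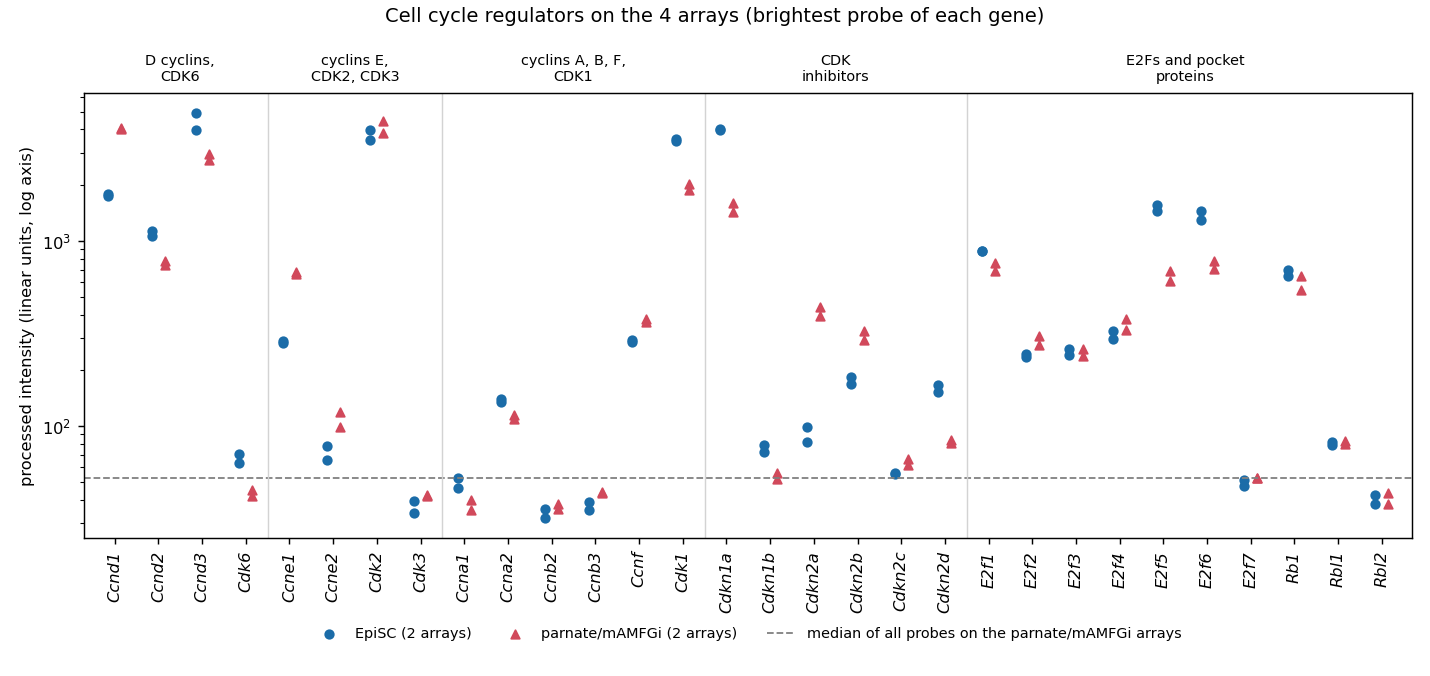
Processed intensity (log axis) of 30 cyclin, CDK, inhibitor, E2F and pocket protein genes on each array, with EpiSC arrays as circles and parnate/mAMFGi arrays as triangles. The dashed line is the array median of 52; Ccnd1, Ccne1 and Cdkn2a sit higher in parnate/mAMFGi cells, and Ccnd3, Cdk1, Cdkn1a, Cdkn2d, E2f5 and E2f6 sit lower.

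Among the D-type cyclins, which link growth signals to G1, 1 member rose and the others fell. Beside this, 41.5% of all genes and 69.8% of brighter genes passed. Ccnd1 read 1793.1 and 1744.0 on the EpiSC arrays and 4088.8 and 4030.4 on the parnate/mAMFGi arrays. The groups lay far apart, with a log2 fold change of 1.20 (SE 0.09, limma adjusted p = 7.06e-08). Its other 2 probes rose by 1.25 and 2.26 on the log2 scale, and both rises passed. Ccnd2 read 1129.8 and 1056.1 in EpiSCs and 744.5 and 775.4 in parnate/mAMFGi cells, a log2 fold change of −0.52 (SE 0.09, limma adjusted p = 3.47e-04). Ccnd3 read 4891.4 and 3967.5 in EpiSCs and 2958.0 and 2751.8 in parnate/mAMFGi cells. Its EpiSC arrays were the more spread, yet both lay above the other group (log2 fold change −0.63, SE 0.11, limma adjusted p = 2.79e-04). Its other 2 probes were dimmer, with log2 fold changes of −0.25 each that did not pass, and the mean over the 3 Ccnd3 probes fell by 0.38. Cdk6, a kinase partner of the D cyclins, fell from 70.4 and 62.8 to 44.8 and 42.0 (log2 fold change −0.62, limma adjusted p = 1.19e-04), and its parnate/mAMFGi values lay below the array median. Ccnd1 rose together with most fibroblast feeder markers, and Ccnd2 and Ccnd3 did not; the part of feeder RNA in these values was not tested.

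Both E-type cyclins, which act with CDK2 at entry into S phase, rose, beside 20.2% of all genes that passed as higher. Of brighter genes, 69.8% passed in either direction. Ccne1 read 288.4 and 281.0 in EpiSCs and 680.5 and 666.3 in parnate/mAMFGi cells. Replicates differed little beside the gap between groups, and the log2 fold change was 1.24 (SE 0.09, limma adjusted p = 4.91e-08). Ccne2 was much dimmer, at 65.8 and 77.6 against 98.7 and 118.5 (log2 fold change 0.60, SE 0.11, limma adjusted p = 5.67e-04). For Cdk2 itself the 4 probes did not give one answer. The brightest read 3973.5 and 3506.5 in EpiSCs and 3845.6 and 4469.1 in parnate/mAMFGi cells, and the groups overlapped. Its log2 fold change of 0.15 had a 95% interval of −0.08 to 0.38 (limma adjusted p = 0.323). The other 3 probes rose by 0.59, 0.62 and 0.80 on the log2 scale, with the second reading 679.4 and 695.1 against 1055.8 and 1008.3. Averaged over all 4 probes, Cdk2 passed with a log2 fold change of 0.54 (limma adjusted p = 2.31e-04). The annotation assigns 1 of these 4 probes to another Cdk2 transcript than the rest, and it is one of those that rose. Cdk3, a kinase that most laboratory strains lack as a working protein, read 33.7 to 42.5 on the 4 arrays, below the array medians. It did not pass over all arrays (adjusted p = 0.132, limma) but did without EpiSC replicate 1, with a log2 fold change of 0.32 (adjusted p = 0.0281, limma).

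The promoter of Ccne1 is shown because this cyclin had the clearest rise among single-probe members. The window runs from 250 bases before to 50 after the RefSeq start, at chr7:38107441-38107740 (GRCm38.p6, minus strand), and capitals mark GC boxes (GGGCGG on either strand).
Ccne1: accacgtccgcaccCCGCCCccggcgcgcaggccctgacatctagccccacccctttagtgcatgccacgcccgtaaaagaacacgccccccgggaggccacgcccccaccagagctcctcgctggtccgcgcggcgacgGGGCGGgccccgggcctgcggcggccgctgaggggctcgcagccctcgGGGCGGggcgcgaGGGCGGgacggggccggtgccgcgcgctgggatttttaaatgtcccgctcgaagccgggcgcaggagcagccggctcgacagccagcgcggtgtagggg
The window is 76% G and C and holds 4 GC boxes, the nearest beginning 49 bases before the start. It holds none of the E2F, CHR or CCAAT letters described for Cdk1.

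Of the cyclins and the kinase of S phase, G2 and mitosis, the change in Cdk1 was the largest. Cdk1, the kinase that starts mitosis, read 3467.3 and 3552.3 in EpiSCs and 2036.8 and 1890.2 in parnate/mAMFGi cells. Both parnate/mAMFGi arrays lay well below both EpiSC arrays (log2 fold change −0.84, SE 0.09, limma adjusted p = 3.74e-06). Its other 2 probes read 42.4 to 54.3 on all arrays and did not pass, and the mean over the 3 probes fell by only 0.23 (adjusted p = 0.0491, limma). Ccna2, the S and G2 cyclin, read 139.8 and 134.8 against 109.5 and 114.9, a log2 fold change of −0.29 (adjusted p = 0.0219, limma). It did not pass when EpiSC replicate 1 was left out (adjusted p = 0.0693), nor without parnate/mAMFGi replicate 1 (0.173) or 2 (0.0828). Ccna1, the germline cyclin A, read 52.5 and 46.2 against 35.2 and 39.8, near the array medians in EpiSCs and below them in parnate/mAMFGi cells. Its log2 fold change of −0.40 (adjusted p = 0.00647, limma) did not pass without EpiSC replicate 1 (adjusted p = 0.0508) or parnate/mAMFGi replicate 1 (0.133), and was −0.62 after normexp correction with offset 16. Ccnf, an F-box cyclin that serves a ubiquitin ligase and activates no CDK, rose from 292.5 and 284.6 to 378.4 and 365.6. Its log2 fold change was 0.37 (adjusted p = 0.00502, limma), with an adjusted p of 0.0689 without parnate/mAMFGi replicate 1. Ccnb2, a mitotic cyclin, and Ccnb3, a meiotic one, read 31.8 to 44.0 on the 4 arrays, below the medians, and did not pass. For Ccnb3 the log2 fold change was 0.25 (adjusted p = 0.0568, limma), and it passed under 3 alternatives, which were eBayes with trend (adjusted p = 0.0255), the mean over probes (0.0402) and leaving out EpiSC replicate 1 (0.0302, limma).

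The promoter of Cdk1 is shown because it combines the motifs through which E2F and MuvB complexes are known to act on cell cycle genes. The window lies at chr10:69352863-69353162 (GRCm38.p6, minus strand). Capitals mark E2F cores, of which only the spellings TTCGCGC and TTGGCGC were searched. They also mark the cell cycle homology region or CHR, spelled TTTGAA in one form and, in the other, TTCGAA. The boxes CCAAT and GGGCGG are marked too, and every motif was searched on both strands.
Cdk1: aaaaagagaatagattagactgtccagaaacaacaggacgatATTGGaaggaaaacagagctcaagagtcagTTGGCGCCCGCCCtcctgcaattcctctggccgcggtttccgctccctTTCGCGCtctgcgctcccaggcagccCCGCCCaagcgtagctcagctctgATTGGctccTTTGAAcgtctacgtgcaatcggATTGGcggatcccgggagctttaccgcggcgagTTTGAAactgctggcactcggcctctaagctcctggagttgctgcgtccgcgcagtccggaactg
The 2 E2F cores begin 178 and 130 bases before the start, and the 2 CHR matches 71 and 15 bases before it. CCAAT boxes, all on the other strand as ATTGG, begin 208, 80 and 48 bases before the start, and GC boxes 171 and 104 bases before it. An ATTGG can share its TTGG with an E2F core, but no such overlap occurred in this window; 1 E2F core abuts a GC box. Of the 46 members, 35 had a RefSeq window, on 42 start sites. An E2F core stood in 3.89% of all 32851 windows and in 6 of the 42 member windows. These belonged to 6 members, which were Ccnb3, Cdk1, E2f2, E2f3, E2f7 and Rbl1. Among members with a window, 1 of 10 that rose (E2f2), 1 of 11 that fell (Cdk1) and 4 of 14 that did not pass held one. CHR letters stood in 19.2% of all windows and in 8 of the 42 member windows (8 members). CCAAT stood in 37.4% of all windows and in 19 member windows (18 members). The GC box stood in 35.7% of all windows and in 32 member windows (29 members). These are matches of letters and not bound sites. Neither other spellings of an E2F site nor letters outside the window were searched, so a member without a match may still hold such a site.

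The CDK inhibitors held both the largest rise and the largest fall of the set. Of 6 measured, 2 rose, 3 fell and 1 did not pass, beside 41.5% of all genes and 69.8% of brighter genes that passed. None of the 6 overlapped between groups, beside 66.1% of all genes and 84.7% of brighter genes without overlap. Cdkn2a, whose locus encodes both p16Ink4a and p19Arf, read 98.5 and 82.3 in EpiSCs and 436.9 and 390.3 in parnate/mAMFGi cells. The parnate/mAMFGi arrays were about 4.59-fold higher (log2 fold change 2.20, SE 0.11, limma adjusted p = 6.92e-10). Its second probe went from 54.9 and 58.4 to 199.1 and 216.6, a log2 fold change of 1.87. Cdkn2b, the neighbouring INK4 gene for p15, rose from 168.6 and 184.2 to 292.4 and 326.5, with a log2 fold change of 0.81 (limma adjusted p = 9.39e-06). Both genes rose along with most of the feeder markers, and the part of feeder RNA in their values was not tested.

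The other INK4 genes, for p18 and p19Ink4d, did not follow Cdkn2a and Cdkn2b. Cdkn2d read 153.0 and 166.0 in EpiSCs and 80.4 and 84.1 in parnate/mAMFGi cells, and the groups were well separated. It fell by 0.95 on the log2 scale (SE 0.10, limma adjusted p = 1.09e-06). Cdkn2c read 55.7 and 54.7 against 66.6 and 61.3, and its log2 fold change of 0.21 did not pass (adjusted p = 0.101, limma). In the CIP/KIP family, Cdkn1a, the p21 gene and a classical p53 target, read 3991.0 and 4017.1 in EpiSCs and 1601.3 and 1435.8 in parnate/mAMFGi cells. The EpiSC arrays nearly coincided and lay far above the others (log2 fold change −1.40, SE 0.10, limma adjusted p = 2.22e-08). All 3 Cdkn1a probes fell, the dimmer ones with log2 fold changes of −0.96 and −0.62. Cdkn1b, the p27 gene, fell from 71.9 and 78.5 to 51.4 and 55.4 (log2 fold change −0.49, limma adjusted p = 7.40e-04), with its parnate/mAMFGi values around the array medians. The mean over its 3 probes, 1 of which read 29.6 to 34.0, fell by 0.29.

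The start sites of Cdkn2a are shown because the gene had the largest rise and 1 symbol covers transcripts from 2 promoters. The starts lie 12427 bases apart on the minus strand of chromosome 4, at chr4:89294570-89294869 for the upstream window, known as the Arf promoter, and chr4:89282143-89282442 for the downstream one, known as that of Ink4a (GRCm38.p6). Capitals mark GC boxes and CCAAT boxes.
Cdkn2a upstream: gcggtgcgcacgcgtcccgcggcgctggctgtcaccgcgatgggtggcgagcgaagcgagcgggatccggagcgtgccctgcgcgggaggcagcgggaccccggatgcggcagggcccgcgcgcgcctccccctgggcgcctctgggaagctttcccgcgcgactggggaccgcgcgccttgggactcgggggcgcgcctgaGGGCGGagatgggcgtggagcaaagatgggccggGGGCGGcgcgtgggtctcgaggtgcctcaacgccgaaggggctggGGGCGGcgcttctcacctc
Cdkn2a downstream: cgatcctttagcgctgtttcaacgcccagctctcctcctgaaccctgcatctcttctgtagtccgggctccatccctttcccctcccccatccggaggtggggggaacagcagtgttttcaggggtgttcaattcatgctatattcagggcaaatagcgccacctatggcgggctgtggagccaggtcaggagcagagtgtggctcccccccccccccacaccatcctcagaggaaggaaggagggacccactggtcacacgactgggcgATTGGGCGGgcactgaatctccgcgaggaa
The upstream window is 77% G and C with 45 CpG pairs, and the downstream window 60.3% with 12. The upstream window holds 3 GC boxes, and the downstream window 1, which overlaps a CCAAT box on the other strand. Both array probes carry the same transcript in the annotation, and their positions were not used here. The rise therefore cannot be assigned to either start.

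**Figure D2:**
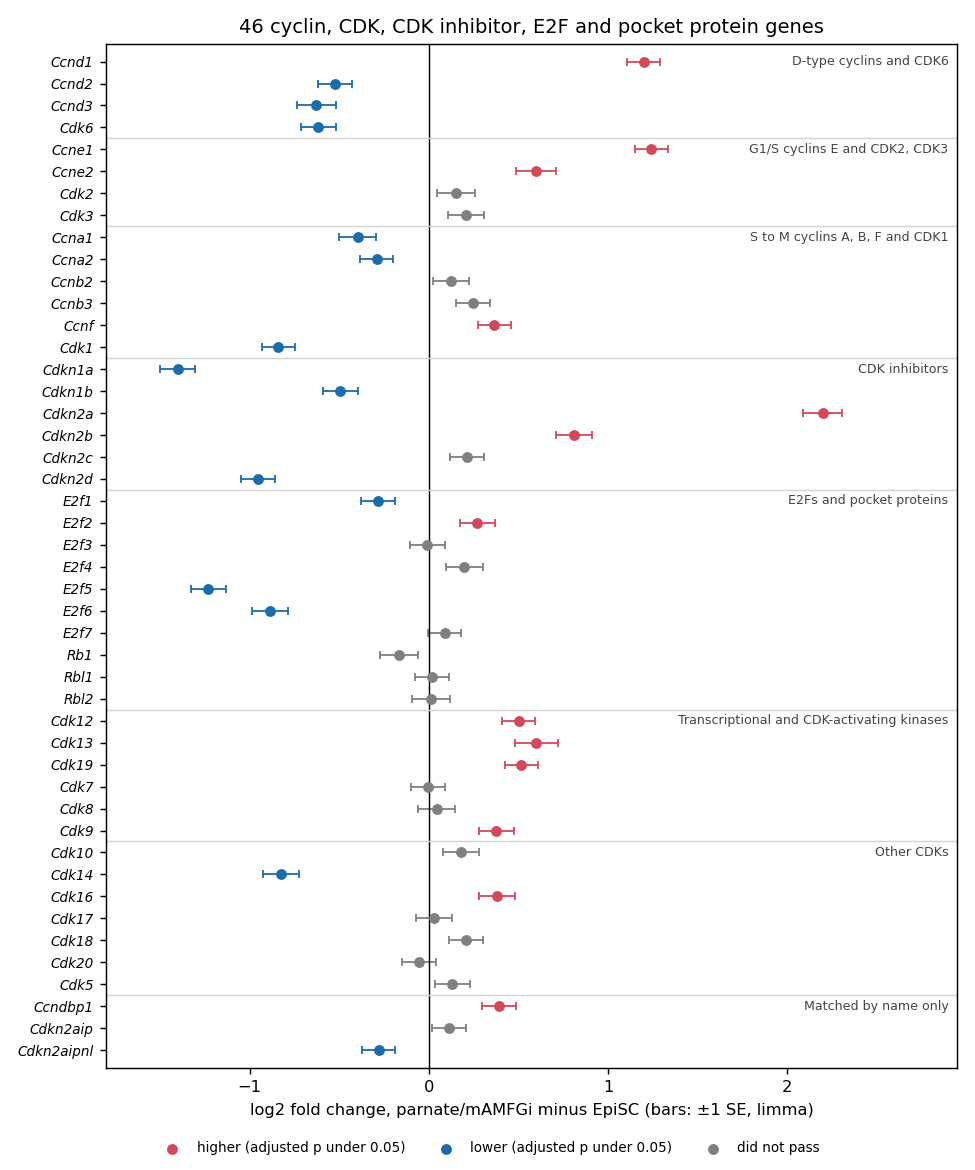
Log2 fold change (parnate/mAMFGi minus EpiSC) of all 46 members by class, with points at the brightest probe and bars of 1 SE from limma. Points right of 0 in red passed as higher, those left of 0 in blue passed as lower, and grey points did not pass; Cdkn2a at 2.20 and Cdkn1a at −1.40 are the ends of the range.

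Among the E2F factors the 2 large changes were falls in repressors. E2f5, which represses with the pocket proteins in resting cells, read 1448.7 and 1569.7 in EpiSCs and 604.9 and 683.8 in parnate/mAMFGi cells. The groups did not come near each other, and the log2 fold change was −1.23 (SE 0.10, limma adjusted p = 1.32e-07). The mean of its 2 probes, of which the dimmer read 35.2 to 39.4, fell by 0.64. E2f6, a repressor that binds Polycomb proteins and no pocket protein, read 1300.7 and 1451.3 against 706.9 and 782.1 (log2 fold change −0.89, SE 0.10, limma adjusted p = 4.12e-06). All 3 of its probes fell, by 0.89, 0.87 and 0.49 on the log2 scale. The activators E2f1, E2f2 and E2f3, which switch on replication genes, changed little. E2f1 read 882.8 and 884.1 in EpiSCs and 760.3 and 690.9 in parnate/mAMFGi cells, a log2 fold change of −0.29 (adjusted p = 0.0276, limma). E2f2 read 244.5 and 236.5 against 273.6 and 307.6 (log2 fold change 0.27, adjusted p = 0.0405, limma). Neither call held when any one of the 4 arrays was left out, with adjusted p-values of 0.0578 and 0.0563 without EpiSC replicate 1 for E2f1 and E2f2, 0.0582 and 0.110 without EpiSC replicate 2, 0.0588 and 0.0601 without parnate/mAMFGi replicate 1, and 0.255 and 0.345 without parnate/mAMFGi replicate 2. The mean over the 3 E2f2 probes, at 0.18, did not pass either (adjusted p = 0.137, limma). E2f3 read 242.2 and 261.2 against 261.0 and 239.5, and the log2 fold change of −0.01 had a 95% interval of −0.22 to 0.20. E2f4, a repressor, had a log2 fold change of 0.20 (interval −0.02 to 0.42) and did not pass, and E2f7, an atypical repressor, read 47.4 to 52.4, near the medians.

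None of the 3 pocket protein genes, which hold E2Fs in check, passed the test, beside 41.5% of all genes and 69.8% of brighter genes. Rb1 read 693.6 and 643.1 in EpiSCs and 544.2 and 649.5 in parnate/mAMFGi cells, so the groups overlapped (log2 fold change −0.17, 95% interval −0.40 to 0.06, limma adjusted p = 0.262). Rbl1, the p107 gene, read 81.8 and 78.8 against 82.7 and 79.9 (log2 fold change 0.02, interval −0.18 to 0.22). Rbl2, the p130 gene, read 37.6 to 43.3 on the 4 arrays, below the medians, so its level was not resolved.

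Of 6 kinases that act on transcription, 4 rose by modest amounts, none fell and 2, both below the array medians, did not pass. Beside this, 41.5% of all genes passed (20.2% as higher), and 69.8% of brighter genes passed. Cdk9, the kinase of the elongation factor P-TEFb, read 208.4 and 229.8 in EpiSCs and 296.2 and 272.7 in parnate/mAMFGi cells, a log2 fold change of 0.38 (limma adjusted p = 0.00619). It did not pass without parnate/mAMFGi replicate 1 (adjusted p = 0.107). Cdk12 and Cdk13, which phosphorylate RNA polymerase II with cyclin K, rose by 0.50 and 0.60 on the log2 scale. Cdk13 read 352.1 and 269.1 against 449.2 and 485.2, whereas Cdk12 was dim, at 46.5 and 45.0 against 63.9 and 65.6; after normexp correction with offset 50 the Cdk12 value was 0.33. Cdk19, a kinase of the Mediator complex, rose from 131.2 and 125.4 to 185.7 and 181.2 (log2 fold change 0.52, limma adjusted p = 3.45e-04). Cdk8, its paralog, and Cdk7, the CDK-activating kinase, read 40.5 to 47.0 and 33.4 to 34.5, below the medians, and did not pass.

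Of the 7 CDKs with other roles, 1 rose, 1 fell and 5 did not pass. Thus 28.6% of them passed, beside 41.5% of all genes and 69.8% of brighter genes. Cdk14, which pairs with cyclin Y in Wnt signalling, read 119.6 and 107.2 in EpiSCs and 60 and 68.1 in parnate/mAMFGi cells. It fell by 0.82 on the log2 scale (SE 0.10, limma adjusted p = 1.05e-05), while its other probe read 35.7 to 42.3 and the mean of the 2 fell by 0.42. Cdk16, also a cyclin Y partner, rose from 344.8 and 322.1 to 464.5 and 404.3 (log2 fold change 0.38, limma adjusted p = 0.00725), but not without parnate/mAMFGi replicate 1 (adjusted p = 0.146). Cdk5, the neuronal CDK, read 70.8 and 74.2 against 83.7 and 75.3, a log2 fold change of 0.13 with an interval of −0.08 to 0.34. Cdk10 and Cdk20 had log2 fold changes of 0.18 and −0.05 and did not pass; Cdk10 passed without EpiSC replicate 2, at 0.30 (adjusted p = 0.0390, limma). Cdk17 and Cdk18 read 34.9 to 50.7, below the medians. Of the 3 genes matched by name, the cyclin D binding protein gene Ccndbp1 rose by 0.39 (adjusted p = 0.00324, and 0.0539 without parnate/mAMFGi replicate 1, limma). Cdkn2aip, whose product binds Arf, did not pass. Cdkn2aipnl, a relative of it, read 2263.8 and 2186.9 against 1872.7 and 1791.5 (log2 fold change −0.28, adjusted p = 0.0265, limma). That call failed without EpiSC replicate 1 (adjusted p = 0.0795), parnate/mAMFGi replicate 1 (0.0950) or parnate/mAMFGi replicate 2 (0.188), and under 4 other settings (0.0616 to 0.243).

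**Figure D3:**
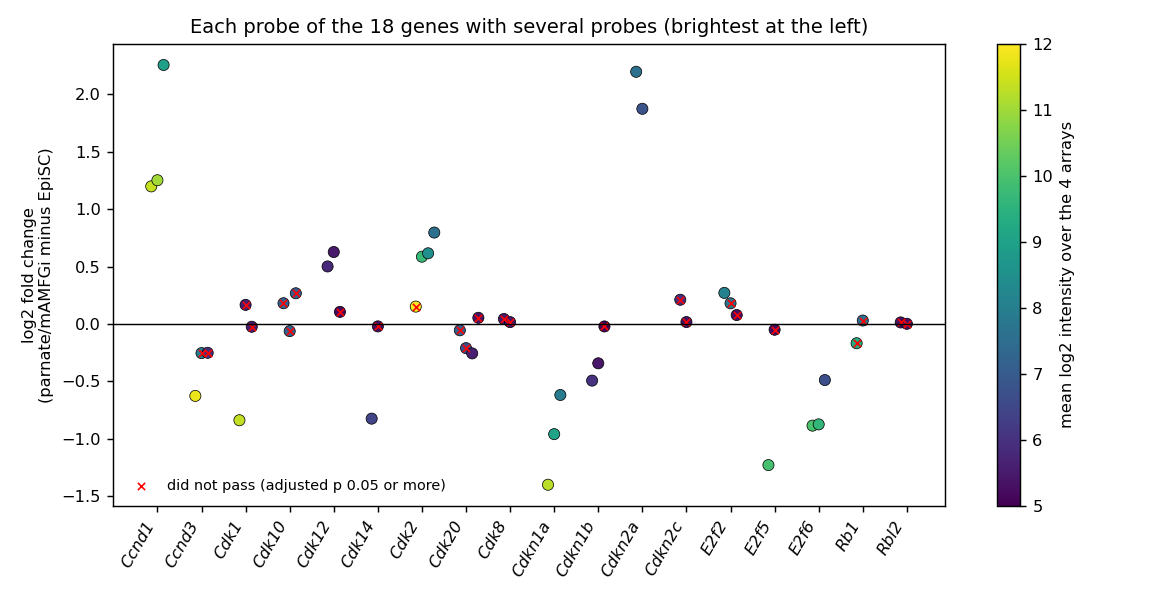
Log2 fold change of each probe of the 18 members with several probes, coloured by mean log2 intensity over the 4 arrays, with red crosses on probes that did not pass. Probes of 1 gene never passed in opposite directions; dark, dim probes lie near 0 for Cdk1, Cdk14 and E2f5, while for Cdk2 the brightest probe is the one that did not pass.

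Probes gave a second reading for 18 members. Over the whole array 38.4% of probes passed. Calls were mixed among the probes of 9 genes, and in none did 2 probes pass in opposite directions. In Ccnd3, Cdk1, Cdk12, Cdk14, Cdkn1b, E2f2 and E2f5 the brightest probe passed and at least 1 dimmer probe did not. Cdk2 and Cdk20 were the exceptions, with a brightest probe that did not pass and dimmer ones that did. For Cdk20 that dimmer probe read 51.8 and 54.9 against 44.7 and 44.6, around the medians.

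Genes that work beside the cyclins and E2Fs were counted in 7 lists. Each is read beside the 41.5% of all genes and the 69.8% of brighter genes that passed. Between 1 and 4 genes per list had means below the array median of 52 in both groups, so most list genes were not dim. Of 20 origin licensing and replication genes, 8 rose, 3 fell and 9 did not pass, with a median log2 fold change of 0.17. Tyms, which makes thymidylate, rose from 1449 ± 53.9 to 4238 ± 248 (mean ± SD, n = 2 arrays, log2 fold change 1.55). Tyms has 5 probes, and its log2 fold change was as small as 0.87 under the alternatives. The helicase subunit genes Mcm3 and Mcm2 rose by 0.88 and 0.78, and the polymerase clamp gene Pcna by 0.75. Of the 3 that fell, Cdc45 had a log2 fold change of −0.45, while Mcm4 (−0.31) and Mcm6 (−0.27) lost their calls under 8 and 9 of 14 alternatives. Of the 8 that rose, Mcm7 lost its call under 8 of 14, with a log2 fold change of 0.14 (adjusted p = 0.360, limma) without EpiSC replicate 1, and Cdc6 lost it on the mean over probes (adjusted p = 0.155, limma). Of 17 mitosis genes, 2 rose, 7 fell and 8 did not pass, with a median of −0.04. The spindle midzone gene Prc1 fell from 7590 ± 574 to 2996 ± 19.2 (log2 fold change −1.34) and the centromeric histone gene Cenpa by 1.25. The checkpoint gene Mad2l1 fell by 0.81 and the spindle assembly gene Tpx2 by 0.75, whereas Birc5 rose by 0.49. Kif11, the other member that rose, passed in 5 of 14 alternatives. Of the mitosis genes that fell, Top2a (−0.42) and Aurka (−0.41) passed in 9 and 12 of 14. The difference between the replication and mitosis lists was not tested.

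Of 8 E2F partner and MuvB genes, 4 rose, none fell and 4 did not pass, with a median of 0.29. Mybl2, the B-Myb partner of the MuvB complex at mitotic promoters, rose from 592.5 ± 32.1 to 2877 ± 106, with a log2 fold change of 2.28 (limma adjusted p = 1.20e-10). The E2F dimer partner genes Tfdp1 and Tfdp2 rose by 0.66 and 0.56, and Lin54, the MuvB subunit that binds CHR letters, by 0.58. Of 10 genes for CDK activators, their opponents and Cks subunits, 1 rose, 5 fell and 4 did not pass. Cdc25c, the phosphatase that activates CDK1, fell from 325.6 ± 20.4 to 163.2 ± 19.7 (SD, limma adjusted p = 2.02e-06). Mnat1, the assembly factor of the CDK-activating kinase, fell by 0.71 and Cdc25b by 0.47. Cdk2ap2 (−0.36) did not pass without EpiSC replicate 2 or either parnate/mAMFGi array (adjusted p 0.0734 to 0.133, limma), and Pkmyt1 (−0.28) did not pass without any 1 of the 4 arrays (0.0518 to 0.298). Cdk2ap1, at 0.26, likewise passed in 8 of 14 alternatives. Cdc25a (0.20), Wee1 (0.23) and Cks1b (0.21) did not pass, but Cdc25a and Wee1 did without EpiSC replicate 1 (adjusted p = 0.0282 and 0.0361, limma).

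Of 15 genes of cyclin and inhibitor turnover, 7 rose, 4 fell and 4 did not pass, with a median of 0.27. Anapc11, 1 of those that rose, read below the array medians in both groups and passed in 3 of 13 alternatives. Of those that fell, Skp1 (−0.35) and Cdc20 (−0.31) passed in 7 and 8 of 14. Fbxw7, the receptor that directs cyclin E to degradation, rose from 421.0 ± 38.5 to 762.9 ± 40.4 (log2 fold change 0.86). Ccne1 rose in the same cultures. The anaphase-promoting complex genes Cdc23 and Cdc16 went opposite ways, at 0.98 and −1.01, and the F-box gene Btrc fell by 0.68. Under the 14 alternatives the log2 fold change was as small as 0.39 for Fbxw7 and −0.23 for Btrc. Skp2, the receptor for p27, had a log2 fold change of −0.23 (adjusted p = 0.0677, limma) and passed under 3 alternatives. The list of p53 targets and checkpoint genes had 14 measured genes, of which 3 rose, 5 fell and 6 did not pass. Its median log2 fold change was −0.03. Beside Cdkn1a, the p53 targets Sesn1 (−2.23), Ccng1 (−0.99), Bbc3 (−0.99), Zmat3 (−0.56) and Phlda3 (−0.32) fell. Across the 14 alternatives their weakest log2 fold changes were −1.62 (Sesn1), −0.47 (Ccng1), −0.46 (Bbc3), −0.39 (Zmat3) and −0.19 (Phlda3). Phlda3 passed in 7 of 14 alternatives. The p53 target Sesn2 rose by 1.53. Mdm2 (0.14), Gadd45a (0.19), Btg2 (−0.19) and Perp (−0.06) did not pass. The mean over the Mdm2 probes did, at 0.24 (adjusted p = 0.0458, limma). Trp53 was not analysed here. Of 9 genes upstream of the D cyclins, Rb and Cdkn2a, 6 rose and 3 did not pass. Id1 had a log2 fold change of 3.56, and Id3 and Id2 of 2.11 and 2.10; Id2 is known to bind pocket proteins. Tbx3 and Bmi1, known as repressors of the Cdkn2a locus, rose by 3.38 and 0.69, in the same cells in which Cdkn2a rose, and Bmi1 read 42.2 ± 2.62 and 68.2 ± 6.86. Myc and Mycn read 51.0 ± 0.778 and 35.9 ± 0.849 in EpiSCs, the first just above the medians and the second below them, and did not pass.

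**Figure D4:**
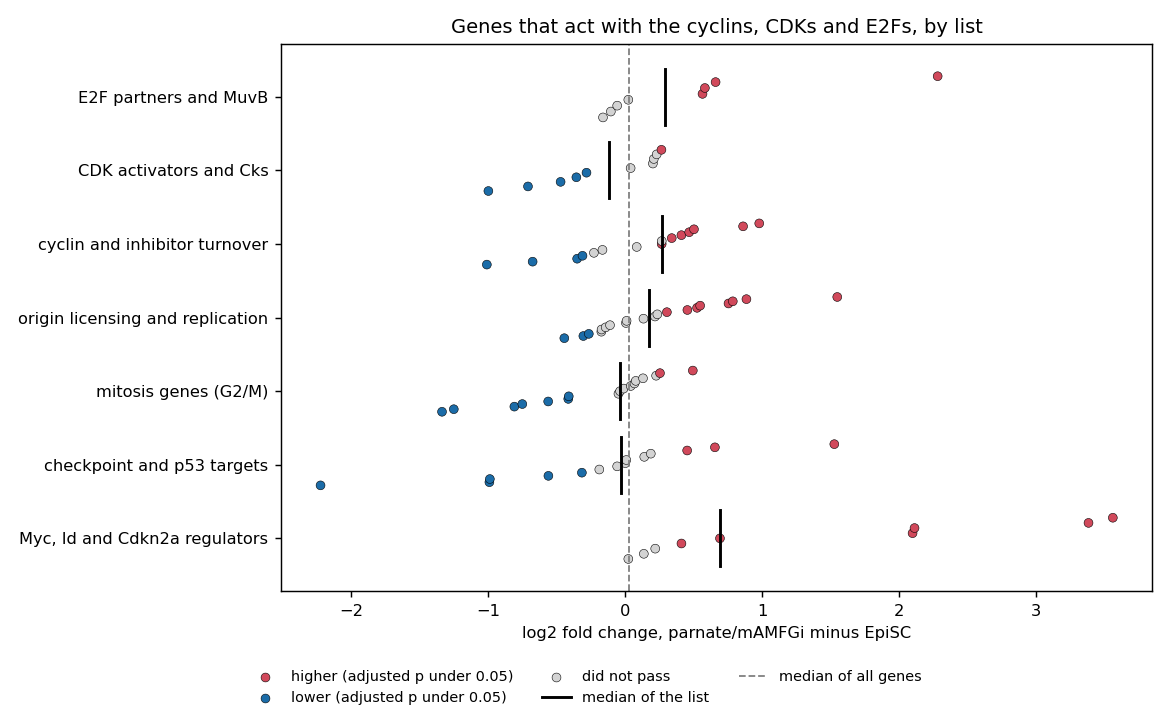
Log2 fold change (parnate/mAMFGi minus EpiSC) of the genes in 7 lists that act with the cyclins, CDKs and E2Fs; red and blue points passed as higher and lower, grey points did not pass, black bars are list medians and the dashed line is the median of all genes (0.02). Medians run from −0.12 for CDK activators to 0.69 for the Myc, Id and Cdkn2a regulators, and 5 of the mitosis genes that fell lie beyond −0.50.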

How the data were processed

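Gene expression was measured in 2 EpiSC and 2 parnate/mAMFGi samples, per the labels' protocols with Illumina TotalPrep cRNA labelling. The values used were the authors' deposited intensities, 1 per probe and array on a linear scale. How they were background-corrected and scaled is not stated in the labels' protocols or the file headers, and the array medians were nearly equal. A second deposited table has 8 columns whose names match no label and was not used, so detection could not be called and no depth exists beyond the number of arrays. Values were log2-transformed without pseudocount or filter and fitted with limma 3.58.1 in R 4.3.3 (lmFit, eBayes, 2 residual and 11.8 prior degrees of freedom), with Benjamini-Hochberg adjustment over all probes. The fit was tested on simulated data. Symbols came from the platform annotation (23978 probes with 1 symbol, 1719 with none), and all 46 member symbols matched RefSeq (GRCm38.p6). Promoter windows are RefSeq's. Alternatives covered normalization, background, dim probes, moderation, the replicate number as a block, probe averaging and each array left out. Members and lists were chosen with earlier results of these data known. Named genes were all members, the 4 largest called changes per list and fixed direct regulators. Cdc6, Cdc45, Mcm4, Mcm6, Mcm7, Birc5, Kif11, Cdk2ap1 and Pkmyt1 were added after their values were seen. So were Mdm2, Gadd45a, Btg2, Perp, Phlda3, Zmat3, Skp1, Cdc20, Anapc11, Top2a and Aurka. No slide or scan date was available. The p-values set the difference between groups against the spread within groups, which was largely shared across all probes.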

Additional observations from a re-analysis of the deposited data

How the results depend on the processing

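Of the 27 members that passed, 18 did so under all 14 alternatives, 9 lost the call under at least 1 and none reversed; 4 others passed under at least 1 alternative and 15 under none. The 9 were Ccna1, Ccna2, Ccndbp1, Ccnf, Cdk9, Cdk16, Cdkn2aipnl, E2f1 and E2f2. Leaving out 1 array at a time, members numbered 8 to 14 higher, with 8 without parnate/mAMFGi replicate 1, and 10 to 13 lower. In the same fits, CDK activators numbered 0 to 2 higher and 3 to 4 lower, turnover genes 4 to 7 higher and 2 to 3 lower, replication genes 1 to 3 lower and mitosis genes 1 to 2 higher. The lone array of a group is then assumed to vary like the others. Over all probes 3737 to 4870 were higher and 3753 to 4755 lower in these fits. Scaling to a common median and normexp with offset 16 each left 0 CDK activators higher and 1 mitosis gene higher. Turnover genes that were lower numbered 2 under cyclic loess and normexp with offset 16. Replication genes that were lower numbered 1 under quantile normalization, cyclic loess, normexp with either offset and the mean over probes. Mitosis genes that were higher also numbered 1 on brighter probes alone, under eBayes with trend and with the replicate block. Mcm6 had a log2 fold change of −0.27 and reversed, to 0.043, on the mean over probes (adjusted p = 0.758, limma). The causes were not tested. Replicate numbers mark no known pairing: deviations of same-numbered samples correlated at −0.06 over all probes, and the replicate block gave 13 members higher and 14 lower, as without it.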
